A study of Mus musculus with 8 samples.

Results

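The Hox genes encode homeodomain transcription factors and stand in 4 clusters in the mouse genome, HoxA on chromosome 6, HoxB on chromosome 11, HoxC on chromosome 15 and HoxD on chromosome 2 (GRCm38). Members were taken as every row of the count table whose symbol is Hox, a cluster letter and a paralog number, which gave 38 of 28460 genes, with 11 in HoxA, 10 in HoxB, 9 in HoxC and 8 in HoxD. The annotation used for names and lengths (GENCODE M21) lists 39 such genes, and the remaining one, Hoxd4, has no row and was not analysed here. Enough counts for a test were found for 24 of the 38, among 16059 genes tested in all.

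The libraries were made from cells of mouse testes at postnatal day 12, when the first germ cells have entered meiosis, with 4 biological replicates without deletion of Brg1 (Brg1 WT, or WT) and 4 with its conditional knockout (Brg1 cKO, or cKO). Brg1, encoded by Smarca4, is the motor subunit of SWI/SNF, which moves nucleosomes, and the series title names its work with a polycomb-associated protein in germ line transcription. All animals are labelled as of mixed background. The promoter driving Cre and the deleted exons are details not given in the sources used here. Testis cells were freed with collagenase and trypsin and passed through a 40 micron sieve, a preparation with no marker sort, so that cells other than germ cells can be present.

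Within a cluster, Hox genes are numbered by their relationship across clusters (paralog groups), and their order along the chromosome matches the order in which they are used along the head to tail axis of the embryo. Low-numbered (anterior) genes pattern the hindbrain and neck, and high-numbered (posterior) genes pattern the lumbar and tail region, the limbs and the urogenital tract. Polycomb proteins hold the clusters silent where they are not used, trithorax proteins keep them active, and adult mesenchymal cells often retain the Hox code of their position.

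As a check of the genotype labels, Smarca4 stood at 347 ± 7.67 CPM (counts scaled to library totals with TMM factors, mean ± SD, n = 4) in WT and 121 ± 7.55 CPM in cKO, a log2 fold change of -1.52. Library totals ran from 20456743 to 32596038 estimated counts, so that 1 count was worth 0.0306 to 0.0495 CPM. The germ cell genes Dazl and Ddx4 were present in both genotypes (645 ± 72.4 and 214 ± 24.1 CPM in WT, 531 ± 79.3 and 178 ± 33.0 CPM in cKO), and so were the Sertoli cell gene Wt1 (333 ± 70.8 and 400 ± 71.2 CPM) and the stromal gene Pdgfra (115 ± 25.6 and 235 ± 52.5 CPM). WT replicates 1 and 2 stood apart in 8 late meiotic transcripts such as Piwil1, whose summed level was 235 and 206 CPM there, 150 and 131 CPM in WT replicates 3 and 4 and 89.0 to 105 CPM in cKO. In bulk samples such as these, fewer cells of a type and less RNA per cell cannot be told apart.

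Hox transcripts were scarce. All 38 together held 1421 to 2428 counts in a library, 0.00541% to 0.00887% of its total. The levels were uneven, since Hoxb9, Hoxd8 and Hoxd9 made up 48.6% of all Hox CPM in WT and 58.4% in cKO. Per kilobase of the longest coding transcript, the highest levels in WT were those of Hoxb9 (5.51 CPM per kb), Hoxd9 (3.74) and Hoxd8 (3.62), followed by Hoxd10 (1.85), Hoxc6 (1.74), Hoxc4 (1.56), Hoxd3 (1.36) and Hoxb1 (1.03). Every other member stood below 1 CPM per kb in WT, with Hoxb7 (0.907) and Hoxc9 (0.875) next in order.

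**Figure D1:**
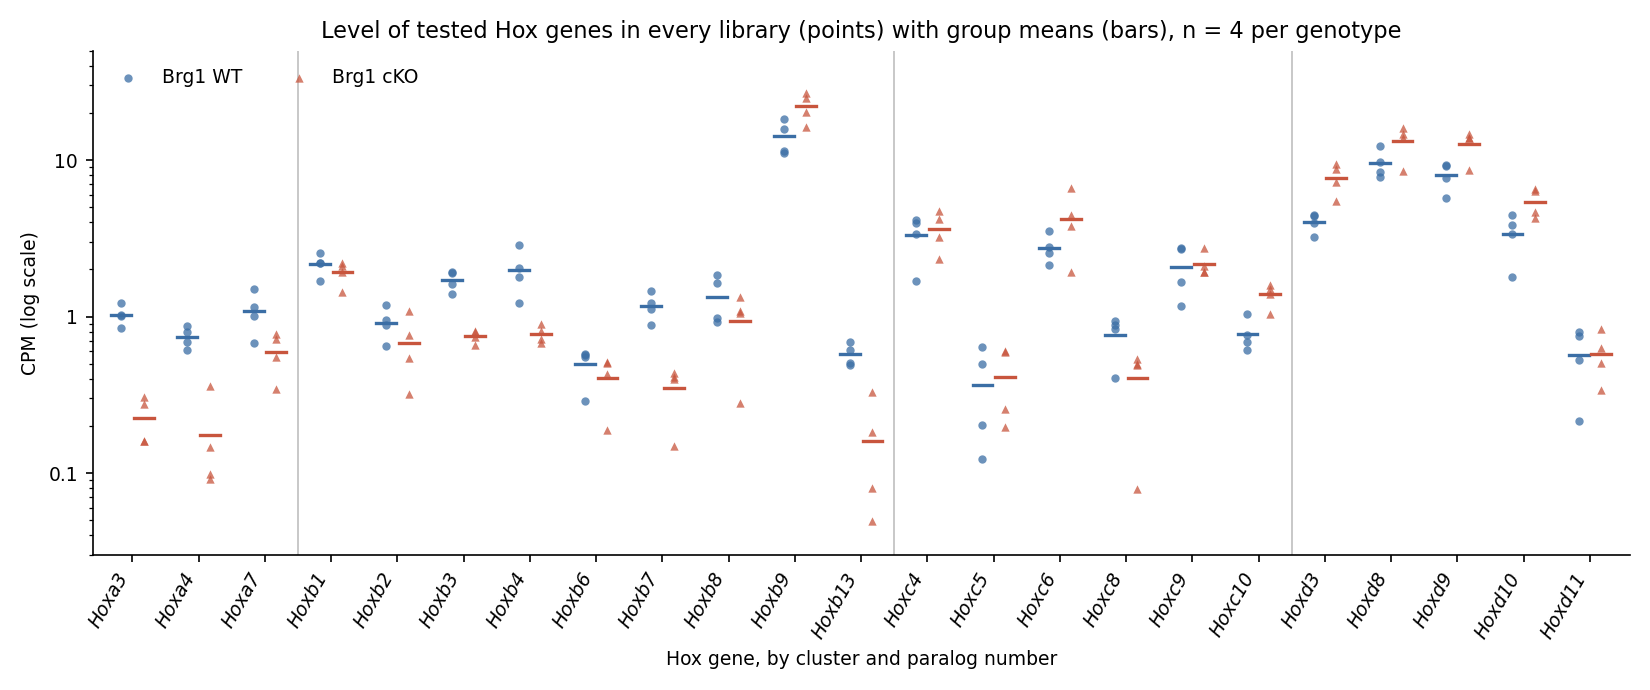
Level in CPM (log axis) of the tested Hox genes reported here in every library, ordered by cluster and paralog number, with circles for WT, triangles for cKO and bars for the means (n = 4 per genotype). Hoxb9, Hoxd8 and Hoxd9 lie highest, and the triangles lie below all circles for Hoxa3, Hoxa4, Hoxb3, Hoxb4, Hoxb7 and Hoxb13.

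The called Hox genes differed in direction between clusters. By the quasi-likelihood test of edgeR with Benjamini-Hochberg adjustment over all genes at a threshold of 0.05, 7 Hox genes were lower in cKO, among them Hoxa3, Hoxa4, Hoxb3, Hoxb4, Hoxb7 and Hoxb13, and 3 were higher (Hoxc10, Hoxd3 and Hoxd9). All 7 lower genes belong to HoxA or HoxB and all 3 higher genes to HoxC or HoxD. Among tested genes that were not called, Hoxb9 and Hoxc8 went against this split. Their log2 fold changes were 0.64 and -0.87 (edgeR adjusted p = 0.0515 and 0.187). Across 19 alternative fits for each gene, the calls of Hoxc10 and Hoxd9 were each lost in 11. Across all genes tested 20.6% were called, 11.8% lower and 8.79% higher. Among the 24 Hox genes tested 41.7% were called, 29.2% lower and 12.5% higher, with a median log2 fold change of -0.26 against 0.013 over all genes. Of the 7 lower genes, 4, Hoxa3, Hoxa4 and Hoxb13 among them, passed the filter on low counts through WT libraries alone, and the counts over the members tested carry that selection. The libraries of the genotypes did not overlap for 9 of the 24, 7 lower and 2 higher, where 26.1% of all tested genes had no overlap, 15% lower and 11.1% higher.

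**Figure D2:**
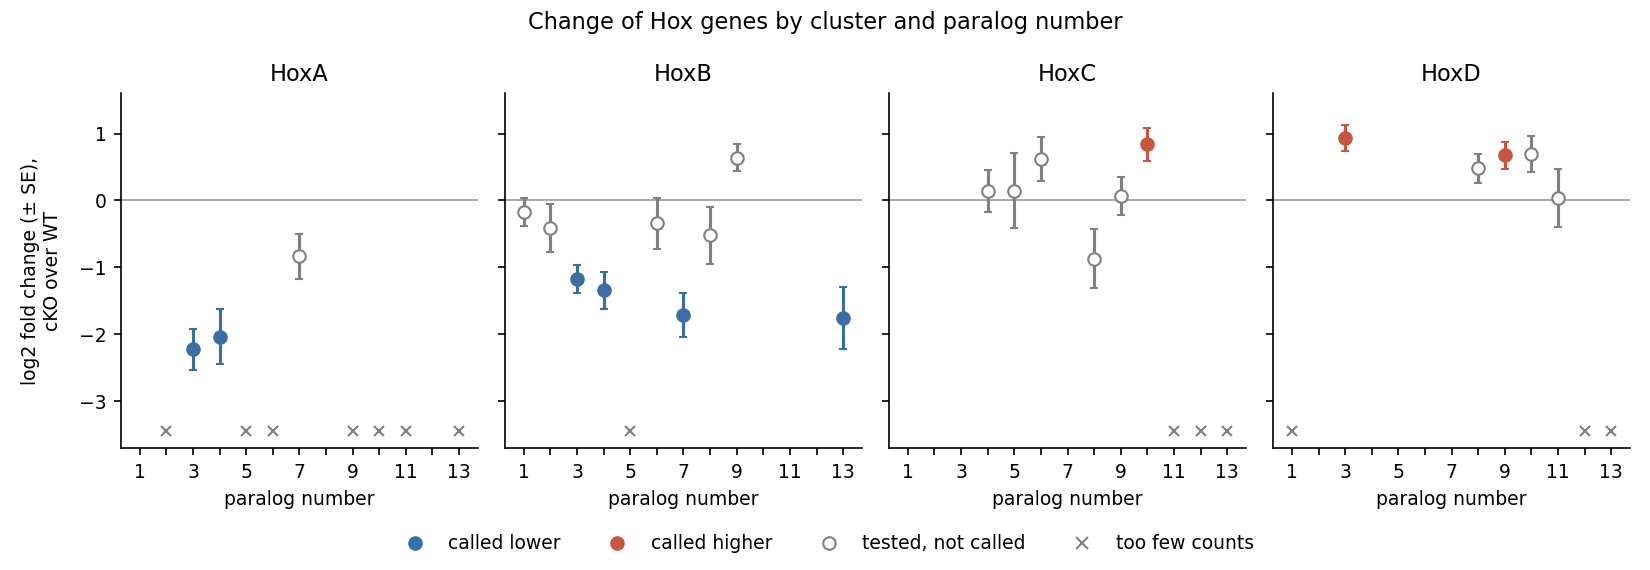
Log2 fold change of cKO over WT with its standard error, by paralog number, for the Hox genes reported here, in 1 panel per cluster. Filled points are called lower or higher, open points were tested and not called, and crosses at the foot of a panel mark members with too few counts. The called points of HoxA and HoxB lie between -2.22 and -1.18, and those of HoxC and HoxD between 0.68 and 0.94.

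RefSeq promoter windows of build GRCm38.p6 were given for 21 of the 38 members, and 4 of the 10 called genes were among them. Their 250 bases before the transcription start are shown, read 5′ to 3′ on the gene's strand, as the sequence context of genes that were lower (Hoxa3 and Hoxb4) and higher (Hoxd3 and Hoxd9). Capitals mark a match to 1 of 4 motifs searched on both strands, the TATA box (TATAAA), the CCAAT box (CCAAT), the GC box (GGGCGG) and a joint PBX and HOX motif (TGATTNAT).
Hoxa3, chr6:52213068-52213317, minus strand: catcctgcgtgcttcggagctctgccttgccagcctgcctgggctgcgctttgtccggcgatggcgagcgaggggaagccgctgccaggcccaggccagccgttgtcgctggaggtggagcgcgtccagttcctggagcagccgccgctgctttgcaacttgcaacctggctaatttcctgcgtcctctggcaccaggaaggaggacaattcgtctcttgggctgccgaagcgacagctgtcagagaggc
Hoxb4, chr11:96318017-96318266, plus strand: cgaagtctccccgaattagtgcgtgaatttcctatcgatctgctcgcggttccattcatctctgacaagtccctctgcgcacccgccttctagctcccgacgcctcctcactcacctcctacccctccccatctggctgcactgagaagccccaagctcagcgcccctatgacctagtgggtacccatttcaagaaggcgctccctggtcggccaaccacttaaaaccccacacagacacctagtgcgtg
Hoxd3, chr2:74711743-74711992, plus strand: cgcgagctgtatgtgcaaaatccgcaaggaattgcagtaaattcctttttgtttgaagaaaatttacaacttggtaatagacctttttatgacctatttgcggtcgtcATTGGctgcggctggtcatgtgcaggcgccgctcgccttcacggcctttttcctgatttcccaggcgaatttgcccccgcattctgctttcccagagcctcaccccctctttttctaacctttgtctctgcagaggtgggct
Hoxd9, chr2:74697513-74697762, plus strand: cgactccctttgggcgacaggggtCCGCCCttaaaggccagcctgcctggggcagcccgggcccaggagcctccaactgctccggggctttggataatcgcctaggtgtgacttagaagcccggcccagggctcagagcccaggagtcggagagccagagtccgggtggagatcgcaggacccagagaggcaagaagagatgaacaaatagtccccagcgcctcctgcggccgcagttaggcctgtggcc
The Hoxd3 window held 1 CCAAT box, written here on the other strand, and the Hoxd9 window 1 GC box, also on the other strand. The Hoxa3 and Hoxb4 windows held no match to these letters. Over all 32851 windows of this length, 12.4% held the TATA box, 33.8% the CCAAT box, 32.7% the GC box and 2.82% the PBX and HOX motif. Among the 23 windows of Hox genes the numbers were 3, 13, 10 and 2. GC content was 64.8% for Hoxa3, 58% for Hoxb4, 49.2% for Hoxd3 and 65.2% for Hoxd9, with 18, 14, 12 and 13 CpG dinucleotides, beside a median of 52.4% and 6 CpG over all windows and 59.2% and 13 CpG over the Hox windows. The start given for Hoxa3 was not found at the start of a transcript in the annotation used for lengths.

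In HoxA, 3 of the 4 genes tested were lower in cKO, against 11.8% of all genes. The other 7 of its 11 members were not tested, and Hoxa3 and Hoxa4 passed the filter through WT libraries alone. Hoxa3, needed for the thymus and parathyroid glands, had 30, 22, 33 and 30 counts in the WT libraries, in order of replicate number, and 6, 4, 4 and 6 in the cKO libraries, an order kept below. Every cKO library lay below every WT library, at 0.226 ± 0.0767 against 1.03 ± 0.155 CPM (SD, n = 4 each). The fall was 4.67-fold (log2 fold change -2.22 ± 0.31 (SE), edgeR adjusted p = 0.00314). Hoxa4, long known as a Hox gene expressed in meiotic and later male germ cells, had 26, 18, 26 and 15 counts in WT and 2, 4, 9 and 2 in cKO. The highest cKO library, replicate 3 at 0.361 CPM, remained under the lowest WT library at 0.611 CPM, and the fall was 4.10-fold (log2 fold change -2.04 ± 0.41, edgeR adjusted p = 0.0115).

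Hoxa7, which was tested and not called, stood at 1.09 ± 0.344 CPM in WT and 0.598 ± 0.193 CPM in cKO, with overlapping libraries (log2 fold change -0.84 ± 0.33, edgeR adjusted p = 0.0987). The summed level of the 11 HoxA genes was 4.02, 4.37, 4.90 and 5.06 CPM in WT and 2.02, 2.42, 2.05 and 1.45 CPM in cKO. The highest sum in cKO was thus below the lowest in WT, at a ratio of 0.432 between the means. Without WT replicates 1 and 2, Hoxa3 kept its call (log2 fold change -2.34, edgeR adjusted p = 0.036), while Hoxa4 did not pass (log2 fold change -1.96, edgeR adjusted p = 0.10). In that fit 2.08% of all genes were called lower. Of the 31-base words of Hoxa3, 8.24% occur in other genes, among them Gm28308, a transcript it shares exons with on its own strand. Antisense transcripts overlap exons of Hoxa3, Hoxa4, Hoxa7, Hoxb2, Hoxb3 and Hoxd3, and as the sources used here do not give whether counting used strand, reads of a gene and its antisense partner cannot be told apart.

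Other HoxA genes had too few counts for the test. Hoxa2, which specifies the skeleton of the hyoid arch, had 5, 7, 9 and 3 counts in WT and 1, 2, 1 and 1 in cKO, the same direction as its neighbour Hoxa3, without overlap. Hoxa9, active in blood progenitors, went the other way, with 5, 4, 3 and 4 counts in WT and 7, 13, 7 and 5 in cKO, also without overlap on the CPM scale. These orderings were not tested. Hoxa5 (28 counts over the WT libraries and 20 over the cKO libraries), a lung and vertebral patterning gene, and Hoxa10 (17 and 17), needed for testis descent and the uterus, overlapped between genotypes. Hoxa6 (3 and 4), Hoxa11 (3 and 2) and Hoxa13 (8 and 2) had at most 3 counts in any library.

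In HoxB, 4 of the 9 genes tested were lower in cKO and none was higher, against 11.8% and 8.79% of all genes. Hoxb3, an anterior patterning gene of the hindbrain and neck, stood at 1.40, 1.62, 1.94 and 1.89 CPM in WT and 0.805, 0.659, 0.737 and 0.797 CPM in cKO. The cKO libraries lay close together and all below WT, a 2.27-fold fall (log2 fold change -1.18 ± 0.21, edgeR adjusted p = 0.00710). Hoxb4, known for expanding blood stem cells when overexpressed, stood at 1.80, 1.23, 2.85 and 2.04 CPM in WT and 0.719, 0.893, 0.806 and 0.682 CPM in cKO. WT replicate 3 was highest, the groups did not overlap, and the fall was 2.53-fold (log2 fold change -1.34 ± 0.28, edgeR adjusted p = 0.0122).

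Hoxb7, a central gene of the thoracic region, had 33, 23, 48 and 30 counts in WT and 9, 12, 10 and 3 in cKO. Replicate 4 was the lowest cKO library and no library overlapped with the other genotype, with a 3.28-fold fall (log2 fold change -1.71 ± 0.33, edgeR adjusted p = 0.00940). Hoxb13, a posterior gene that specifies the ventral prostate, had 15, 16, 16 and 17 counts in WT and 4, 9, 2 and 1 in cKO. The WT libraries were nearly level while those of cKO spread widely below them, with a 3.37-fold fall (log2 fold change -1.75 ± 0.46, edgeR adjusted p = 0.0282). Its call was lost without any single one of the 4 WT libraries or of cKO replicates 1 and 3, with adjusted p values up to 0.073. Without WT replicates 1 and 2 together, the calls of Hoxb3 and Hoxb4 held (adjusted p = 0.045 and 0.032) and those of Hoxb7 and Hoxb13 did not (adjusted p = 0.055 and 0.152).

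Hoxb9, which patterns the thoracic ribs and is the most abundant Hox gene here, stood at 11.1, 11.5, 15.8 and 18.4 CPM in WT and 25.0, 16.4, 20.3 and 26.7 CPM in cKO. Only cKO replicate 2 lay under the highest WT library, and the difference (log2 fold change 0.64 ± 0.20, 1.56-fold) narrowly missed the threshold (edgeR adjusted p = 0.0515). The hindbrain genes Hoxb1 (2.16 ± 0.344 and 1.92 ± 0.334 CPM) and Hoxb2 (0.916 ± 0.217 and 0.678 ± 0.325 CPM) and the trunk genes Hoxb6 (0.497 ± 0.141 and 0.407 ± 0.151 CPM) and Hoxb8 (1.34 ± 0.460 and 0.941 ± 0.457 CPM) overlapped between genotypes and were not called, with log2 fold changes between -0.52 and -0.17. Hoxb5, expressed in the enteric nervous system and lung of the embryo, had 0 counts in every library, which allows up to 0.0917 to 0.148 CPM per library at a limit of 3 counts that covers counting error only. Hoxb9 outweighs the other members, and the HoxB sum overlapped between genotypes (24.5 ± 5.26 and 28.1 ± 4.77 CPM), whereas the sum without Hoxb9 was 10.3 ± 1.96 CPM in WT and 5.98 ± 0.447 CPM in cKO with no overlap.

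HoxC holds no anterior genes in the mouse, and 1 of its 6 tested members was called, against 20.6% of all genes. Hoxc10, which specifies lumbar motor neurons, stood at 0.607, 1.04, 0.764 and 0.692 CPM in WT and 1.6, 1.49, 1.40 and 1.04 CPM in cKO. The lowest cKO library, replicate 4, was barely above the highest WT library, replicate 2, and the rise was 1.79-fold (log2 fold change 0.84 ± 0.25, edgeR adjusted p = 0.0407). Of its 31-base words 7.34% also occur in other genes, Hoxc5 among them. The central gene Hoxc6, which marks the brachial level of the spinal cord, stood at 2.13, 3.53, 2.57 and 2.77 CPM in WT and 4.49, 3.79, 6.66 and 1.93 CPM in cKO. Replicate 4 of cKO was below every WT library and the others above them, with a log2 fold change of 0.62 ± 0.33 and an edgeR adjusted p = 0.204.

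Hoxc4 (3.30 ± 1.13 and 3.63 ± 1.06 CPM, log2 fold change 0.14 ± 0.31, edgeR adjusted p = 0.775) and Hoxc9 (2.08 ± 0.791 and 2.17 ± 0.387 CPM, log2 fold change 0.069 ± 0.29, edgeR adjusted p = 0.885), a cervical and a thoracic patterning gene, had overlapping libraries. Hoxc5 (0.366 ± 0.245 and 0.412 ± 0.216 CPM) overlapped too, and Hoxc8 stood lower in cKO without passing the test (0.762 ± 0.242 and 0.403 ± 0.217 CPM, edgeR adjusted p = 0.187). Hoxc11 (12 counts in WT and 11 in cKO) and the hair gene Hoxc13 (25 and 9) had too few counts, and Hoxc12 had 0 counts in every library. The HoxC sum overlapped between genotypes, at 10.4 ± 2.61 CPM in WT and 12.4 ± 3.65 CPM in cKO.

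HoxD genes stood higher in cKO, as far as they were called. Hoxd3, which acts with Hoxa3 in shaping the first neck vertebrae, stood at 3.25, 4.47, 4.39 and 3.99 CPM in WT and 9.39, 7.20, 8.82 and 5.51 CPM in cKO. No library overlapped, and the rise was 1.92-fold (log2 fold change 0.94 ± 0.19, edgeR adjusted p = 0.0119). In the annotation, Hoxd3 shares exonic bases on the same strand with Hoxd4 and with a transcript that spans both (Gm28230). The larger of these overlaps covers 53.1% of the exonic bases of Hoxd3. Of its 31-base words, 61.1% occur in other genes, Hoxd4 and Gm28230 among them. Counts given to Hoxd3 may thus include those of Hoxd4. The antisense transcripts Haglr and Hoxd3os1 overlap its exons as well. Hoxd9, which patterns the lumbar spine and forelimb, stood at 5.74, 7.69, 9.19 and 9.33 CPM in WT and 14.7, 13.9, 13.8 and 8.69 CPM in cKO. Replicates 1 to 3 of cKO were above every WT library and replicate 4 was within them, with a rise of 1.6-fold (log2 fold change 0.68 ± 0.20, edgeR adjusted p = 0.0422).

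The neighbours of Hoxd9 were not called. Hoxd8 stood at 7.76, 12.3, 9.72 and 8.43 CPM in WT and 14.8, 16, 13.9 and 8.46 CPM in cKO (log2 fold change 0.48 ± 0.21, edgeR adjusted p = 0.132). Hoxd10, a gene of lumbar motor neurons and the hindlimb, stood at 1.79, 3.37, 4.43 and 3.83 CPM in WT and 6.50, 6.31, 4.65 and 4.25 CPM in cKO (log2 fold change 0.69 ± 0.27, edgeR adjusted p = 0.0978). For both, cKO replicate 4 was the only cKO library within the range of WT. Hoxd11, which shapes the forearm and kidney with its HoxA paralog, stood at 0.570 ± 0.263 and 0.577 ± 0.208 CPM. Hoxd1 (14 counts in WT and 12 in cKO), the limb gene Hoxd12 (1 and 0) and Hoxd13 (19 and 3), needed for digits and the urogenital tract, had too few counts for the test.

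Of the 3 higher calls, 2 were lost when single libraries were left out. Over all genes, the fits without 1 library called 3.41% to 9.22% higher, against 8.79% with all libraries. Hoxc10 lost its call without any 1 of WT replicates 1, 3 and 4 or cKO replicates 1 to 3, and Hoxd9 without any 1 of WT replicates 1 to 4 or cKO replicates 1 to 3 (adjusted p up to 0.11 and 0.114), whereas Hoxd3 kept it without each of the 8 in turn. Without WT replicates 1 and 2, edgeR called no Hox gene higher, although Hoxc10 and Hoxd3 were higher at an unadjusted p under 0.05 and no other tool was run on these 6 libraries. The log2 fold changes there were 0.93 for Hoxc10, 0.88 for Hoxd3 and 0.47 for Hoxd9 (edgeR adjusted p = 0.132, 0.097 and 0.246), in a fit where 0.584% of all genes were called higher.

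**Figure D3:**
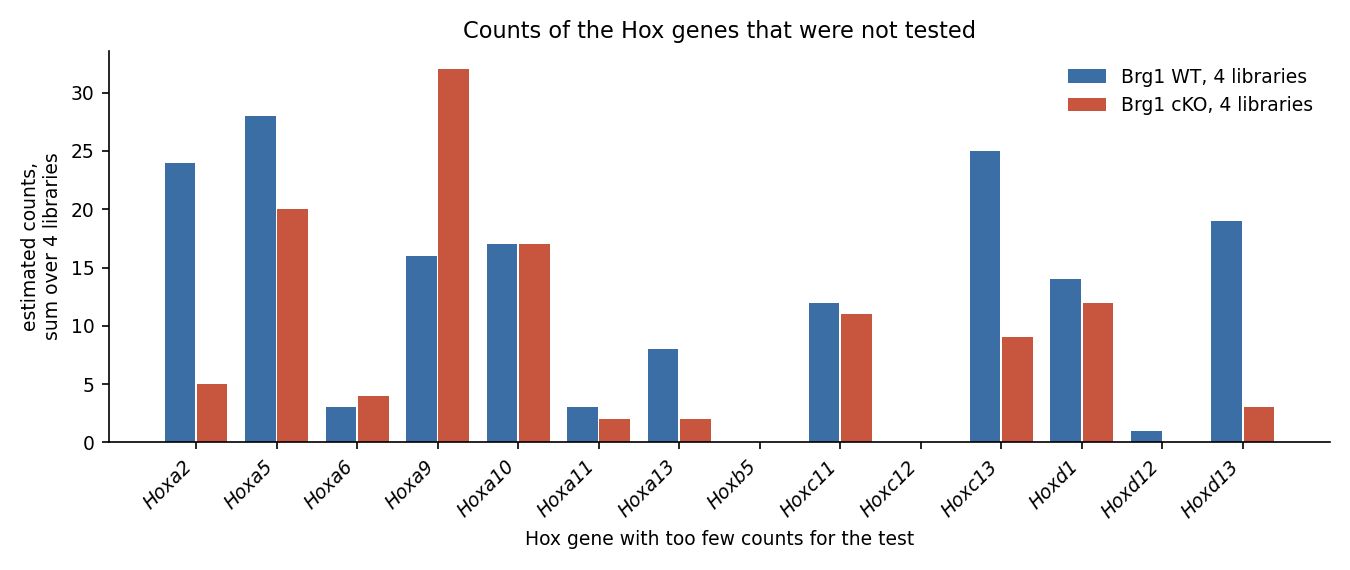
Estimated counts summed over the 4 libraries of each genotype for the 14 Hox genes that were not tested. Hoxb5 and Hoxc12 have no count, Hoxa9 reaches 32 counts in cKO against 16 in WT, and Hoxa2, Hoxc13 and Hoxd13 have 24, 25 and 19 counts in WT against 5, 9 and 3.

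Read by paralog number, the same group could hold changes of either sign. Group 3 held 2 members that fell (Hoxa3 and Hoxb3) and 1 that rose (Hoxd3), and its sum overlapped between genotypes (6.76 ± 0.75 and 8.71 ± 1.73 CPM). The group 4 sum, with Hoxa4 and Hoxb4 called lower and Hoxc4 not called, was 6.02 ± 1.51 and 4.58 ± 1.18 CPM and overlapped as well. The group 7 sum (Hoxa7 and Hoxb7) was 2.26 ± 0.424 and 0.948 ± 0.319 CPM, and that of group 13 was 1.02 ± 0.0645 and 0.308 ± 0.124 CPM, neither with overlap. Group 13 rested mainly on Hoxb13, with Hoxa13, Hoxc13 and Hoxd13 all below the count needed for a test. Groups 9 and 10 stood higher in cKO with no overlap, at 24.4 ± 5.77 and 37.3 ± 3.82 CPM for group 9, most of it Hoxb9 and Hoxd9, and 4.28 ± 1.19 and 6.99 ± 1.44 CPM for group 10, most of it Hoxd10.

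By position along the axis, the anterior groups 1 to 3 summed to 11.0 ± 1.31 CPM in WT and 11.6 ± 1.6 CPM in cKO, and the central groups 4 to 8 to 23.8 ± 4.03 and 25.4 ± 6.15 CPM, both with overlap. The posterior groups 9 to 13 summed to 22.2, 27.3, 35.1 and 37.1 CPM in WT and 51.0, 41.9, 44.1 and 44.4 CPM in cKO. These did not overlap. Most of the posterior sum came from Hoxb9 (14.2 and 22.1 CPM), Hoxd9 (7.99 and 12.8 CPM) and Hoxd10 (3.36 and 5.43 CPM). Of the 7 posterior genes tested, edgeR called 2 higher and 1 lower, against 8.79% and 11.8% of all genes. The other 4 were not called. Split further, HoxB anterior genes stood at 4.78 ± 0.639 and 3.35 ± 0.135 CPM and the HoxD anterior pair, nearly all Hoxd3, at 4.16 ± 0.574 and 7.86 ± 1.77 CPM, each without overlap. The central genes of HoxA (2.09 ± 0.243 and 1.03 ± 0.266 CPM) and of HoxB (4.99 ± 1.39 and 2.47 ± 0.324 CPM) were also lower in every cKO library than in any WT library. The sums are descriptions and were not tested.

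Markers of other cells moved together with several of these levels. Replicate 4 of cKO, which was lowest among the cKO libraries in the HoxC and HoxD sums (8.02 and 27.9 CPM against at least 11.5 and 42.0 CPM in the others), also had the lowest summed level of 10 stromal markers, 1253 CPM against 2337, 2662 and 2214 CPM. In WT, replicate 1 was the lowest for the HoxC and HoxD sums (6.50 and 19.1 CPM) and for the stromal sum (985 CPM against 1446 to 1597 CPM in the others). The 7 peritubular markers had the same lowest libraries, at 1045 CPM in WT and 1630 CPM in cKO, and so did the Leydig (143 and 186 CPM), endothelial (158 and 166 CPM), macrophage (37.5 and 32.3 CPM) and adipose sums (2.35 and 2.85 CPM). The HoxA sum, which was lower in cKO, was also lowest in WT replicate 1 (4.02 CPM) within WT and in cKO replicate 4 (1.45 CPM) within cKO. Hoxb9 was likewise lowest in WT replicate 1 within WT, but highest among all libraries in cKO replicate 4. Of the 10 stromal markers, 3 were higher in cKO and none lower by edgeR (median log2 fold change 0.67), against 8.79% and 11.8% of all genes. The part of stromal or these other cells in the HoxA, HoxC and HoxD values was not tested.

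The summed level of 15 germ cell markers was 2723, 2393, 2075 and 2222 CPM in WT and 1617, 1986, 1594 and 1952 CPM in cKO, with 7 markers called lower and none higher (median log2 fold change -0.46). That of 15 Sertoli markers was 5023 to 6803 CPM in WT and 6475 to 8794 CPM in cKO, with 7 higher and 1 lower (median 0.42). Over all genes tested, 11.8% were called lower and 8.79% higher. The germ cell sums did not overlap between genotypes and were lower in cKO, as were the HoxA sum and the HoxB sum without Hoxb9. Within WT, the germ cell sum was highest in replicate 1, where the HoxA sum was lowest (4.02 CPM). The germ cell sum was lowest in WT replicate 3, where the HoxB sum without Hoxb9 was highest (12.6 CPM). Within cKO, all of these sums were highest in replicate 2. The HoxA sum was lowest in cKO replicate 4 and the others in cKO replicate 3. The part of germ cells in the HoxA and HoxB values was not tested. Taken relative to the germ cell median, the 7 lower Hox genes were still lower and passed the threshold (log2 fold changes of -1.77 for Hoxa3 and -0.73 for Hoxb3, for example), where 2.8% of all genes were called lower. Relative to the Sertoli or the stromal and peritubular medians, the 3 higher genes remained higher in sign. Hoxd3 (0.52 and 0.51) was the one that passed, where 0.342% and 0.33% of all genes were called higher. Hoxb9, not called in the main test, stood at 0.22 and 0.21 on those scales and at 1.09 relative to the germ cell median. Like the Sertoli sum, Hoxb9 was lowest in WT replicate 1 within WT and in cKO replicate 2 within cKO. The Sertoli sum was highest in cKO replicate 3, at 8794 CPM, with 8560 CPM in cKO replicate 4, where Hoxb9 was highest. The part of Sertoli cells in the Hoxb9 values was not tested. No marker of these 4 lists was without counts.

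**Figure D4:**
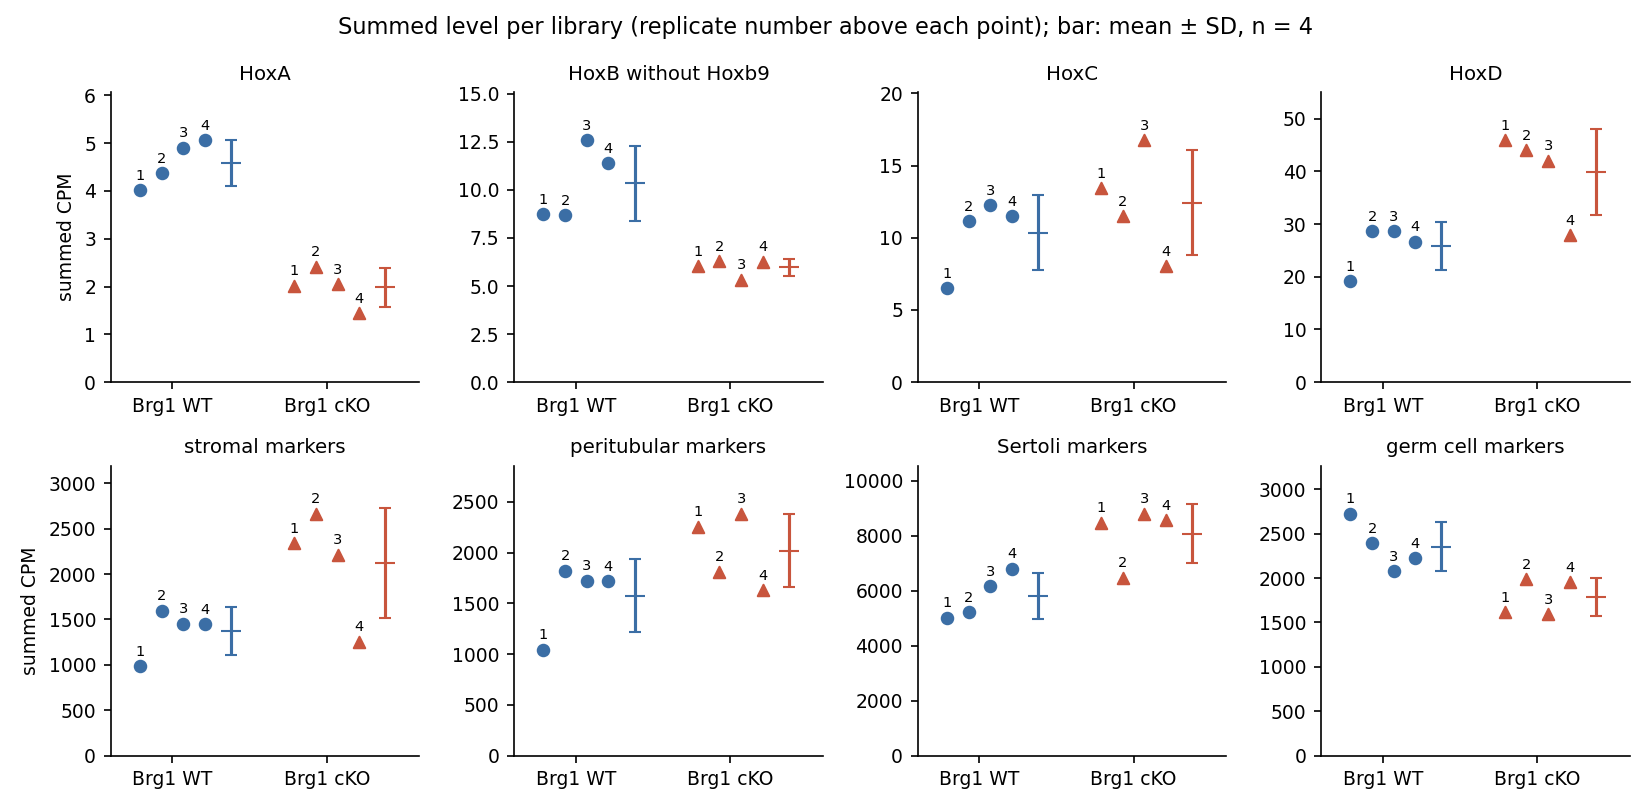
Summed CPM per library of the HoxA, HoxB (without Hoxb9), HoxC and HoxD genes in the upper row and of stromal, peritubular, Sertoli and germ cell markers in the lower row, with replicate numbers above the points and mean ± SD beside them (n = 4). HoxA and HoxB without Hoxb9 are lower in every cKO library. Replicate 4 of cKO is the lowest of its group for HoxA, HoxC, HoxD and the stromal and peritubular markers.

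In the other marker lists, edgeR called 3 of 9 Leydig markers higher and 1 of 7 peritubular markers lower. It called 0 of 8 endothelial and 0 of 7 macrophage markers, and 1 lower of 4 tested markers of epididymal and mesonephric duct epithelium. For mesothelium the calls were 0 of 1, for skeletal muscle 1 lower of 3 and for adipose tissue 0 of 1. Across all genes tested, 11.8% were called lower and 8.79% higher. Among the duct markers, Lcn5 had 0 counts in all libraries and Crisp1 a single count, and the early duct genes Pax2 and Pax8 stood at 4.77 ± 2.19 and 2.09 ± 0.512 CPM in WT. The part of duct cells in the Hox values was not tested.

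Hox proteins bind DNA together with cofactors of the TALE homeobox class, the Pbx, Meis and Pknox proteins, and all 9 were tested. By edgeR, 3 were lower and 3 higher in cKO, against 11.8% and 8.79% of all genes. Pbx3 fell from 34.9 ± 4.03 to 21.4 ± 1.86 CPM (log2 fold change -0.70 ± 0.10, edgeR adjusted p = 0.00341) and Pbx4 from 4.62 ± 1.62 to 2.13 ± 0.293 CPM (log2 fold change -1.12 ± 0.26, adjusted p = 0.0178). Its call was lost without WT replicates 1 and 2 (log2 fold change -0.64, edgeR adjusted p = 0.139). Pbx2 fell from 91.8 ± 1.40 to 69.4 ± 4.39 CPM (log2 fold change -0.40 ± 0.058, edgeR adjusted p = 0.00341), a direction that turns relative to germ cell markers (0.053). Among the higher ones, named after their values were seen, were Meis3 (log2 fold change 0.83) and Meis1 (0.40), and the latter turns to -0.015 relative to Sertoli markers and -0.028 relative to stromal and peritubular markers. Neither was called without WT replicates 1 and 2 (edgeR adjusted p = 0.226 and 0.167).

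Of the regulators known to set Hox expression, 15 were tested, and edgeR called 4 lower and none higher, against 11.8% and 8.79% of all genes. The trithorax partners Men1 (log2 fold change -0.36 ± 0.074, adjusted p = 0.0119) and Wdr5 (-0.26 ± 0.072, adjusted p = 0.0342) and the polycomb subunits Ezh2 (-0.27 ± 0.067, adjusted p = 0.0240) and Eed (-0.26 ± 0.077, adjusted p = 0.0413) were lower. Each of the 4 turns positive relative to germ cell markers (0.097, 0.20, 0.19 and 0.20), a scaling that moves the median over all genes from 0.013 to 0.47. All 4 calls were also lost without WT replicates 1 and 2 (edgeR adjusted p = 0.113, 0.202, 0.181 and 0.192). Ctcf, which insulates domains within the clusters, was not called (109 ± 6.22 and 113 ± 1.39 CPM, edgeR adjusted p = 0.526). The caudal genes Cdx1, Cdx2 and Cdx4, activators of central Hox genes in the embryo, had too few counts.

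Of the genes listed as flanking the clusters, at distances that were not measured, 22 were tested. Their median log2 fold change was 0.10, and edgeR called 2 lower and 4 higher, against 11.8% and 8.79% of all genes. Skap2 beside HoxA fell from 32.7 ± 1.65 to 23.9 ± 1.79 CPM (log2 fold change -0.45 ± 0.079, edgeR adjusted p = 0.00685) and turns to 0.0071 relative to germ cell markers. Calcoco1 beside HoxC rose from 83.5 ± 14.3 to 114 ± 13.3 CPM (log2 fold change 0.45 ± 0.13, edgeR adjusted p = 0.0370), and stood at 0.027 relative to Sertoli markers and 0.014 relative to stromal and peritubular markers. Nfe2l2, from the list for HoxD, rose from 102 ± 6.56 to 121 ± 9.5 CPM (log2 fold change 0.25 ± 0.072, edgeR adjusted p = 0.0401). Its change turns negative relative to Sertoli (-0.17) and to stromal and peritubular markers (-0.19). Without WT replicates 1 and 2, Skap2, Calcoco1 and Nfe2l2 were at -0.40, 0.25 and 0.19 and were not called (edgeR adjusted p = 0.0762, 0.227 and 0.265). No flanking gene of HoxB was called, the most abundant being Nfe2l1 (324 ± 19.2 and 358 ± 11.9 CPM, edgeR adjusted p = 0.120). The homeobox genes at cluster ends, Evx1 (15 counts in WT and 3 in cKO) beside HoxA and Evx2 (5 and 0) beside HoxD, were too scarce to test, and the noncoding RNAs Hotair, Hottip, Halr1 and Haglr were not analysed here.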

How the data were processed

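The values used were the estimated counts that the authors deposited for 8 RNA-seq libraries, 1 row per gene symbol, with genotype and replicate number taken from the sample titles. Kallisto 0.42.5, the build mm9 and edgeR are named in the submitters' processing notes. A stranded mRNA kit was used, per the labels' protocols, with the annotation, the summing of transcripts and the use of strand in counting not given in the sources used here. Of the values, 49.6% were not whole, and all were rounded. Genes reaching 0.392 CPM in at least 4 libraries (filterByExpr) were scaled with TMM factors, and genotypes were compared by edgeR 4.0.16's quasi-likelihood test (R 4.3.3, robust, genotype as the only term), with Benjamini-Hochberg adjustment and a threshold of 0.05. The standard error is the absolute log2 fold change over the square root of F.

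Lengths, exon overlaps and shared 31-base words came from GENCODE M21 (GRCm38), a later build than the authors', matched by symbol. Alternatives were DESeq2 1.42.0, limma-voom (limma 3.58.1), upper-quartile and RLE factors, a filter of 1 CPM in 4 libraries or none, each library left out, WT replicates 1 and 2 left out together, a replicate block and 3 marker lists taken as unchanged. The members and the lists (11 of cell type markers, TALE cofactors, Hox regulators, flanking genes and cluster transcripts) were chosen with earlier results of these data known. Members are named, with full values for those called and the 8 of highest mean CPM, except that a few genes, from the members and the lists, are not reported here. From other lists up to 3 called genes of smallest adjusted p are named, or the most abundant. The 8 late meiotic transcripts were added after seeing the data.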

Additional observations from a re-analysis of the deposited data

Results flagged for a closer look

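Among the 48 groups of 4 libraries (24 tested Hox genes in 2 genotypes), 4 held a library set apart from the other 3 by more than a 95% criterion for a lone value, where chance flags about 1 in 20 groups, or 2.4 of 48. In 3 of them the library was cKO replicate 4. Hoxd9 stood at 8.69 CPM there, against 13.8 to 14.7 CPM in the other cKO libraries. Hoxb7 stood at 0.148 CPM there, the worth of 3 counts, against 0.401 to 0.437 CPM. Hoxc8 stood at 0.0790 CPM there, an estimated count of 1.6 and so under 3 counts, against 0.494 to 0.539 CPM. The remaining case was Hoxb6 in WT replicate 1, at 0.287 CPM against 0.554 to 0.577 CPM in the others. Without cKO replicate 4 the log2 fold change of Hoxd9 was 0.82 in place of 0.68.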

How the results depend on the processing

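The 7 lower calls were also made by DESeq2, limma-voom, RLE and upper-quartile factors, without a filter and relative to each marker list. With at least 1 CPM in 4 libraries, 2 lower calls remained, since the other 5 genes were not tested there. Without WT replicates 1 and 2 there were 4 lower calls, losing Hoxa4, Hoxb7 and Hoxb13, and 0 higher calls. That fit called 2.08% of all genes lower and 0.584% higher. Leaving out each library gave 6 to 7 lower calls, losing Hoxb13 alone, and 1 to 5 higher calls. Over all genes, these fits called 6.45% to 12.2% lower and 3.41% to 9.22% higher. The higher count was 1 without WT replicate 1 or 3 or cKO replicate 1 or 3, and 5 without cKO replicate 4, where Hoxc6 and Hoxd8 were added. Of all genes, 4.41%, 5.54%, 3.41% and 4.27% were called higher in the former fits, in that order, and 8.53% in the latter. Higher calls numbered 1 relative to Sertoli markers, 1 relative to stromal and peritubular markers and 7 relative to germ cell markers, which shift the median over all genes to -0.41, -0.42 and 0.47. Relative to Sertoli markers, as to stromal and peritubular markers, 10 Hox genes were called lower, adding Hoxa7, Hoxb1 and Hoxc8. Of all genes tested, 57% were called lower and 0.342% higher relative to Sertoli markers, and 2.8% lower and 62.9% higher relative to germ cell markers. Relative to stromal and peritubular markers, 58.1% were called lower and 0.33% higher. None of the 10 called Hox genes changed sign under any alternative run. Over 128 refits of the 7 lower genes 118 kept the call and 10 lost it, and over 57 of the 3 higher genes 34 kept it and 23 lost it. DESeq2 called 4445 genes and the fit without WT replicates 1 and 2 called 438, against 3312.

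Some genes that were not called changed sign. Relative to germ cell markers these were Hoxb1 (0.29), Hoxb2 (0.042) and Hoxb6 (0.11). Without WT replicates 1 and 2 they were Hoxc4 (-0.16), Hoxc9 (-0.33) and Hoxd11 (-0.38). Relative to Sertoli markers they were Hoxc4 (-0.28), Hoxc5 (-0.27), Hoxc9 (-0.35) and Hoxd11 (-0.38), and relative to stromal and peritubular markers Hoxc4 (-0.29), Hoxc5 (-0.28), Hoxc9 (-0.36) and Hoxd11 (-0.39). With each library left out, log2 fold changes ran from -0.079 to 0.30 for Hoxc4, from -0.12 to 0.60 for Hoxc5, from -0.13 to 0.25 for Hoxc9 and from -0.24 to 0.23 for Hoxd11. The same ranges were -0.27 to -0.055 for Hoxb1, -0.73 to -0.19 for Hoxb2, -0.53 to -0.084 for Hoxb6 and -0.73 to -0.21 for Hoxb8. The causes were not tested.

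Hoxb9, not called in the main test, was called higher under 7 alternatives, DESeq2 and RLE factors among them. With the replicate number as a block, 6 Hox genes were lower, losing Hoxb13, and 2 higher, Hoxd3 and Hoxb9, while the block lowered the calls over all genes from 3312 to 1914. Deviations of same-numbered libraries correlated at -0.21, 0.13, -0.37 and 0.15, and those of differently numbered libraries at -0.27 to 0.31. Such values cannot show whether same-numbered animals were paired. The sources used here do not say that they were, and no pairing was assumed. Low counts limit the precision of 14 members, which were not tested.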

Other observations

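Gm53, a long noncoding RNA between Hoxb13 and Hoxb9 on the same strand, was singled out after the values of rows lying inside the clusters were seen. It stood at 11.7, 12.2, 20.8 and 21.5 CPM in WT and 31.3, 18.8, 22.5 and 34.5 CPM in cKO. The order of its libraries resembled that of Hoxb9, with cKO replicate 4 highest and WT replicates 1 and 2 lowest, and the genotypes overlapped (log2 fold change 0.69 ± 0.27, edgeR adjusted p = 0.0951).

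Gm11539 and 5730596B20Rik, the latter antisense to Hoxa3, were the other rows inside the clusters. They had 38 and 10 counts in WT and 44 and 4 in cKO and were not tested. Hoxb5, with 0 counts, lies between Hoxb4 and Hoxb6, which had 302 and 94 counts over all libraries.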
